A study of Mus musculus with 12 samples.

Results

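The genes described are 47 genes of DNA replication and the S phase of the cell cycle, out of 18193 genes with at least 1 probe set on the array. They were listed by name: the origin recognition complex and its loading partners, the MCM helicase, the proteins that activate it, the replicative polymerases, the sliding clamp and its loader, the proteins that finish each fragment, the enzymes that supply nucleotides, and the E2F activators with Uhrf1. A single probe set stands for each gene, that of the highest mean over the 12 arrays, and all 47 were on the array and passed the filter on low signals. The series profiled splenic follicular B cells of male 129SvEv mice aged 8 weeks, labelled either ZFXwt (wild type) or ZFXcko (cko). The cells were sorted as B220+ AA4.1- CD23hi CD21int and harvested after 0, 2 or 12 h in culture with 10 µg/mL of anti-IgM, which clusters the antigen receptor on the cell surface as antigen would. The 6 groups, 1 for each genotype and time, hold 2 arrays each, and the title of the series names proliferation and survival after receptor stimulation as its subject. All 6 groups are of 1 strain, sex and age, and the labels give the same anti-IgM concentration for all, though cells at 0 h had no time in it. No group was cultured for 2 or 12 h without anti-IgM, so stimulation and time in culture cannot be told apart. The sources used here do not name the Cre driver or the deleted part of Zfx, or say whether the 2 arrays of a group came from different mice, so p-values measure the spread between duplicate arrays, which may be technical.

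A cell copies its genome once per cycle in ordered steps. In G1 the origin recognition complex, with Cdc6 and Cdt1, loads the MCM2-7 helicase on DNA, and kinases together with the GINS complex and Mcm10 then turn the loaded helicase on. Polymerase alpha with primase starts each strand, polymerases delta and epsilon extend it on the PCNA clamp, and Fen1 and Lig1 join the fragments. Many of these genes are known targets of the E2F transcription factors, which are freed from the retinoblastoma protein as a cell leaves rest. Resting follicular B cells are mostly outside the cycle, and receptor crosslinking moves part of them toward S phase.

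Promoters are shown first because shared E2F letters are the best known common feature of this family. Windows of 300 bases, from 250 before to 50 after an annotated start, were read from RefSeq on GRCm38.p6 for 40 of the 47 genes. The letters TTTCCCGC, TTTCGCGC, TTTGCCGC or TTTGGCGC, on either strand and with overlaps allowed, occurred in 17 of the 40 (42.5%), against 2.6% of 27025 genes with a window. The letters CCAAT on either strand were found in 24 of the 40 (60%), against 41.1% of all genes. AGGCCT, used here as a core of the letters bound by ZFX, was in 6 of them (15.0%; Fen1, Mcm5, Pcna, Prim1, Rpa1 and Rrm2), against 11.6%. The windows printed are those of Pole2 (chr12:69228141-69228440, minus strand), Rfc3 (chr5:151651159-151651458, minus strand) and Mcm5 (chr8:75109259-75109558, plus strand), which hold E2F letters, and of Pcna (chr2:132253131-132253430, minus strand), which holds none. They were picked because Pole2 and Rfc3 differed between the genotypes at 0 and 2 h, and because Mcm5 and Pcna differed widely across the groups. Each runs 5′ to 3′ along the gene's strand, and capitals mark the E2F letters.
Pole2: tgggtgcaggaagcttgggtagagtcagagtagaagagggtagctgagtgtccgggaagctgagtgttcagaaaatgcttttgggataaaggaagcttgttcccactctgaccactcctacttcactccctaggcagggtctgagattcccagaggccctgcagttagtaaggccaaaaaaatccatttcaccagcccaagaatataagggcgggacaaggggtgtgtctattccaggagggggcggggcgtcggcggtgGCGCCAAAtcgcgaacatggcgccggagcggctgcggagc
Rfc3: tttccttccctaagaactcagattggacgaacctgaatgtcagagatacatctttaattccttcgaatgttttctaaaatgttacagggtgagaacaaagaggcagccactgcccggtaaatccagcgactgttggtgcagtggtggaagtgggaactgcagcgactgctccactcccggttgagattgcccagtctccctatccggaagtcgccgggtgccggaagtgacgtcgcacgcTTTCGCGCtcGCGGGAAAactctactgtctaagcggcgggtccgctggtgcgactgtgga
Mcm5: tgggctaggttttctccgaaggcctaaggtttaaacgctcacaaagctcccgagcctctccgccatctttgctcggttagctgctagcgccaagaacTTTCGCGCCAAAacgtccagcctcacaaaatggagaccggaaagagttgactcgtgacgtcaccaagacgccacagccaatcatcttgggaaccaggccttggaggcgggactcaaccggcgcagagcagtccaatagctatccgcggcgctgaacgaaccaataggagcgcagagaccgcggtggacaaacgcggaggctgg
Pcna: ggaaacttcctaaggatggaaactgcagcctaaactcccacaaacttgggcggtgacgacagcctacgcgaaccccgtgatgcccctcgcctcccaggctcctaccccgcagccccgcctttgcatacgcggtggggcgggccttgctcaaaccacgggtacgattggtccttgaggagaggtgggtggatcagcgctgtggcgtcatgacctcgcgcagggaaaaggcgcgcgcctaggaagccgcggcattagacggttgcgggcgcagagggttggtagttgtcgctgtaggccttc
Pole2 has 1 match, close to the start site, and Rfc3 has 2 that lie side by side. The 2 matches of Mcm5 overlap in 1 run of capitals, and its window also holds CCAAT or its reverse complement 3 times and AGGCCT 2 times. A match is only a description of letters, and a window without one says nothing of the factor.

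The 12 arrays fell into 2 sets on their control probe sets. In 6 arrays (wild type at 0 and 12 h, cko at 0 h) the 5′ actin probe set read 1.796 to 3.329% of the 3′ one, and in the other 6 (wild type at 2 h, cko at 2 and 12 h) it read 8.413 to 19.06%. The 18S ribosomal RNA probe set read 6636 to 10892 in the first set and 1022 to 1299 in the second. The 2% trimmed mean was 250 on every array, whereas the median signal was 36.5 to 40.3 in the first set and 29.1 to 32.1 in the second. Comparisons inside 1 set are cko against wild type at 0 h and at 2 h, 12 h against 0 h in wild type and 12 h against 2 h in cko, and they come first below. In each of these 4 the groups still differed without overlap in the actin ratio. It was 3.267 to 3.329% in wild type and 1.796 to 1.988% in cko at 0 h, and 8.413 to 8.511% and 10.56 to 10.78% at 2 h. Wild type at 12 h had 2.106 to 2.266% and cko at 12 h 18.96 to 19.06%. The 18S probe set read 6636 to 7305 at 0 h and 10672 to 10892 at 12 h in wild type. The part of these differences in the results was not tested. The brightest Zfx probe set read 790 to 1041 in the 6 wild-type arrays and 974 to 2618 in the 6 cko arrays, higher in cko at each time. Where its probes lie relative to the deleted part is not given here, so it does not check the labels, and wild type and cko are used below as the labels give them. All 11 follicular B cell markers on the array passed the filter. Duplicate arrays correlated at r = 0.974 to 0.984 across probe sets.

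A value in parentheses is the log2 difference ± SE of 2 groups, each with n = 2 arrays, on the scale log2(signal + 16), and folds are on that scale too, which understates changes of dim genes. Calls were made where limma's p, adjusted over all 12190 genes tested, was under 0.05, and only called genes are said to rise, fall or be higher or lower. Levels are signals of a probe set and are not compared between genes. At 12 h the levels of wild type and cko come from different control-probe sets, so genotype and set cannot be told apart there. In these sorted cells, fewer cells of a type and less RNA per cell cannot be told apart.

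Before stimulation the replication genes differed between the genotypes in both directions. In cko at 0 h 8 of the 47 were higher (17.0%, against 16.3% of all genes tested) and 10 lower (21.3%, against 16%), with a median of -0.08 against 0.02 over all genes. The higher ones included the clamp loader gene Rfc3, the flap nuclease Fen1 and the polymerase epsilon subunit Pole2, and the lower ones the ribonucleotide reductase subunit Rrm2, Orc1, Dut and the kinase gene Cdc7. These shares lie near the background. Calls of Cdc7, Dut, Fen1, Orc1, Rfc3 and Rrm2, 6 of the 18, held under every alternative tried apart from the 2-fold size. The higher count was 5 without wild-type replicate 2 at 0 h or either replicate of cko at 0 h. Without 1 of 6 arrays the lower count was 4 to 6, namely 5 without either wild type at 0 h, 6 and 4 without replicates 1 and 2 of cko at 0 h, and 6 without either cko at 12 h. Median scaling gave 10 higher and 5 lower, and quantile normalization 7 and 6.

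At 2 h of anti-IgM, 6 of the 47 were higher in cko (12.8%, equal to the 12.8% of all genes) and 7 lower (14.9%, against 15.7%), with a median of 0.01 against -0.02. Pole2, Rfc3, Rfc4, Pola1, Orc5 and Rfc2 were higher, so 3 of the 6 clamp and clamp loader genes moved this way. Rrm2, Gins2, Cdc6, Cdc7, Mcm5, Dut and Rpa1 were lower. Calls of Gins2, Orc5, Pole2, Rfc4, Rpa1 and Rrm2, 6 of the 13, held under every alternative apart from the 2-fold size. Of the genes called at 0 h, Pole2, Rfc3 and Rfc4 were higher again at 2 h, which is 37.5% of the 8 and 50% of the 6, against 28.6 and 36.4% for all genes. Cdc7, Dut and Rrm2 were lower at both times, 30% of the 10 and 42.9% of the 7, against 39.9 and 40.9%. Rpa1 was higher at 0 h and lower at 2 h. The 0 h and 2 h comparisons share no array. Of the 11 follicular B cell markers, 7 were higher and 1 lower in cko at 0 h and 1 higher and 8 lower at 2 h. Their sums were 101160 to 101480 in wild type and 116300 to 116690 in cko at 0 h, and 44457 to 45594 and 40800 to 40911 at 2 h. The T and NK cell markers had 1 higher and 1 lower of 10 at each time. The part of these markers was not tested.

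In wild type, 12 of the 47 genes were higher at 12 h than at 0 h (25.5%, against 24.8% of all genes) and 11 were lower (23.4%, against 23.1%), with a median of -0.03 against 0.03. The rises included Uhrf1, Pole2, Pold2, Pcna, Fen1, E2f1, Dut, Rfc4, Gins2 and Mcm5, and the falls Rrm2, E2f2, Mcm10, Pole, Pold1 and Cdt1. Both shares lay near those of all genes. Of the polymerase genes Pold2 and Pole2 rose and Pold1 fell, and Pole was called lower, a call lost without 5 of the 12 arrays in turn and under 5 other settings. Calls of Cdt1, E2f1, E2f2, Fen1, Pcna, Pold1, Pold2, Pole2, Rfc4, Rrm2 and Uhrf1, 11 of the 23, held under every alternative apart from the 2-fold size. Summed follicular B cell markers went from 101160 to 101480 at 0 h to 53091 to 55209 at 12 h (9 of 11 lower, 0 higher), and T and NK cell markers from 2319 to 2343 to 860 to 1073 (7 of 10 lower, 0 higher), and their part in these counts was not tested. Median scaling gave 15 higher and 7 lower, and the lower count was 6 without wild-type replicate 2 at 0 h and 7 without wild-type replicate 2 at 12 h.

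In cko, 23 of the 47 genes were higher at 12 h than at 2 h (48.9%, against 30.2% of all genes) and 4 were lower (8.51%, against 18.7%), with a median of 0.45 against 0.10. Counted by role, without further scaling, the rises took in 6 of 8 polymerase and primase genes, 4 of 6 helicase activators and 4 of 6 clamp genes. They also took in 3 of 5 nucleotide enzymes and 3 of 5 genes of strand binding and fragment joining. Of the MCM2-7 genes 1 of 6 rose and 1 fell (median -0.16), of the origin and loading genes 1 of 7 rose and 2 fell, and of the E2F activators and Uhrf1 1 of 4 rose. Roles hold few genes each, and differences between them were not tested. Rises of Lig1, Orc5, Pole, Prim2, Rrm1 and Uhrf1 lost their calls under both quantile normalization and median scaling. Tk1, Gins2, Pole2 and Dut rose most, and Cdt1, Pcna, Orc6 and Mcm3 fell. The split depended on scaling: quantile normalization gave 17 higher and 7 lower (all genes 24.3 and 22.8%) and median scaling 16 and 10 (21.1 and 27.4%), and median scaling moved the median of all genes from 0.10 to -0.13. The members' median was 0.26 and 0.22 under these settings, against -0.01 and -0.13 for all genes. Calls of 18 of the 27 held under every alternative apart from the 2-fold size. Requiring 2-fold left 7 of the 47 higher and 0 lower, where 16.8% of all genes reached that size in either direction. Summed follicular B cell markers also went from 40800 to 40911 at 2 h to 55172 to 56062 at 12 h, with 8 of 11 higher and 3 lower, and their part in these counts was not tested. The rises of 12 h over 0 h in wild type and of 12 h over 2 h in cko, which share no array, had Cdc7, Dut, Gins2, Mcm5, Pold2, Pole2, Rfc4 and Uhrf1 in common, 66.7% of the 12 and 34.8% of the 23, against 46 and 37.7% for all genes. Pold1, Pole, Rfc1, Rfc2 and Rpa1 fell in the first and rose in the second, 45.5% of the 11 and 21.7% of the 23, against 31 and 23.7% for all genes. Cdt1 fell in both (9.09% of the 11 and 25% of the 4, against 29 and 35.8%). Pcna rose in the first and fell in the second (8.33% of the 12 and 25% of the 4, against 22.1 and 29.3%). Of these shared genes, only Pold2, Pole2, Rfc4, Pold1, Cdt1 and Pcna held both calls under every alternative apart from the 2-fold size.

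**Figure D1:**
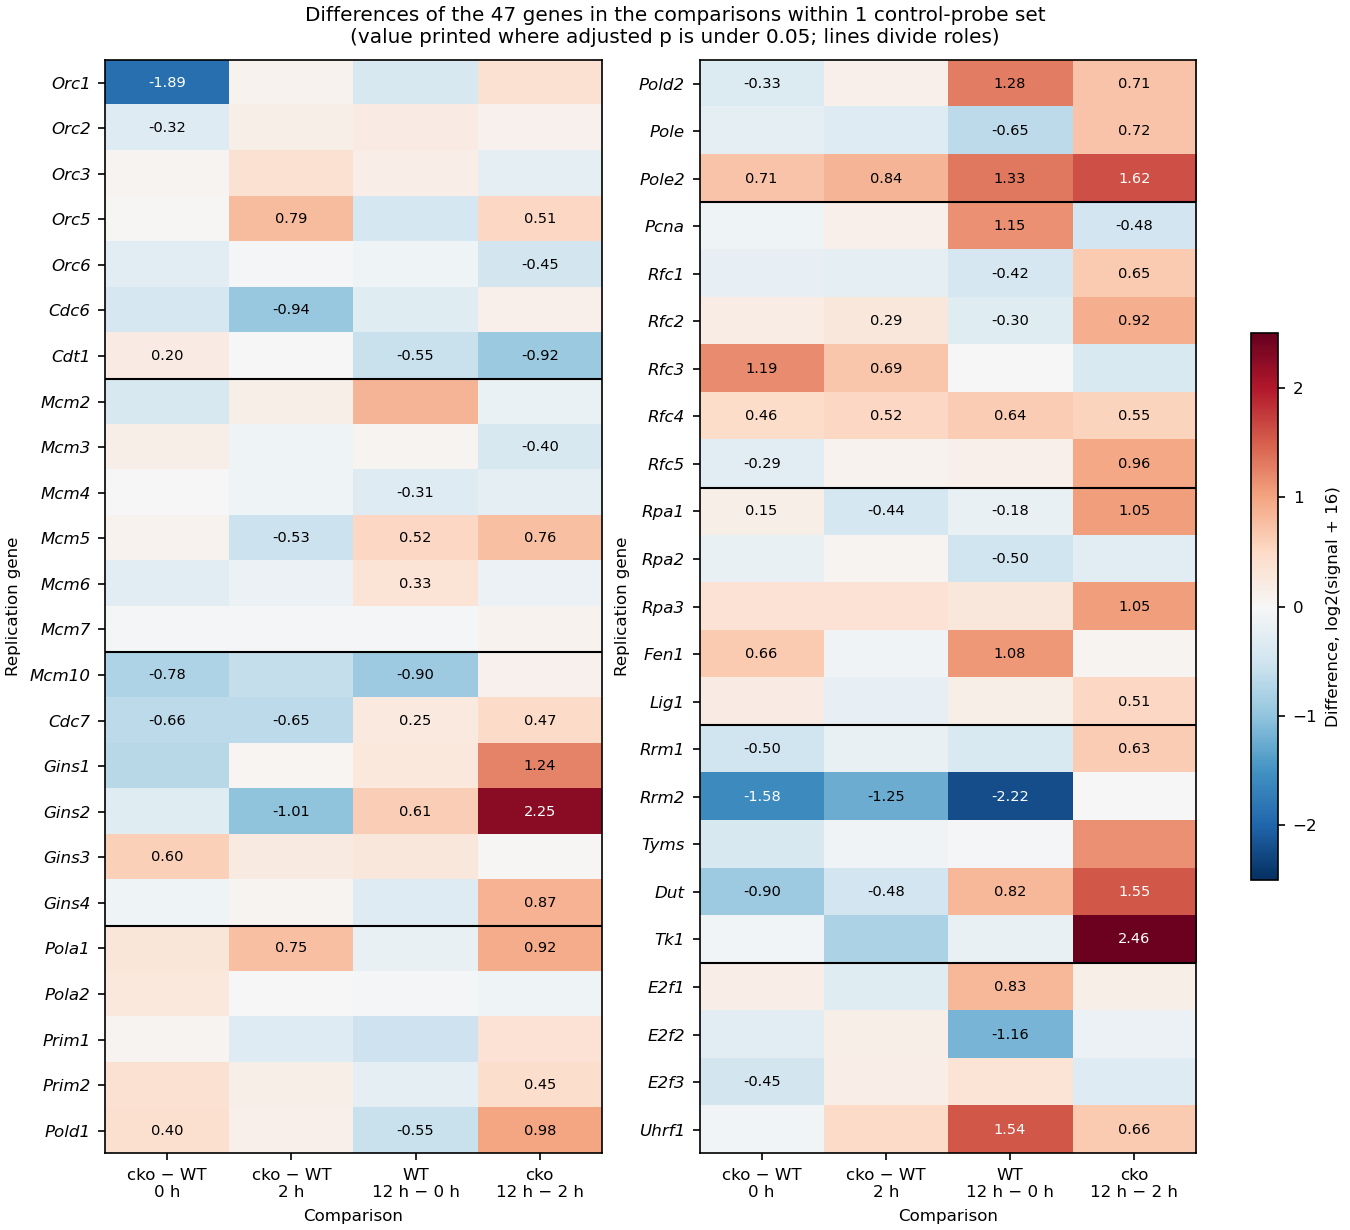
Log2 differences of the 47 genes (rows, grouped by role) in the 4 comparisons inside 1 control-probe set (columns); colour gives the direction and size, and a value is printed where adjusted p was under 0.05. The column of cko at 12 h against 2 h holds 23 rises and 4 falls, and the other 3 columns are mixed.

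Of the 7 origin recognition and loading genes, Orc1, the largest subunit of the complex, and Orc5 had the widest span of group means. Orc1 (1443172_at) read 126 and 109 at 0 h, 53.2 and 67.9 at 2 h and 95.2 and 76.7 at 12 h in wild type. Orc1 in cko read 7.27 and 39.6, 44.4 and 91.1 and 83.6 and 94.9 at these times. Both cko arrays at 0 h lay under the other 10, and they also differed from each other. Orc1 was lower in cko at 0 h (-1.89 ± 0.37, adjusted p = 0.00145), and was not called at 2 h (0.08 ± 0.37) or in the comparisons over time inside a set. Orc5 (1415830_at) read 329 and 413 at 0 h, 102 and 119 at 2 h and 257 and 279 at 12 h in wild type. Orc5 in cko read 422 and 335, 196 and 211 and 251 and 349 at these times. The 2 wild-type arrays at 2 h were the lowest of the 12, with cko at 2 h next. Orc5 was higher in cko at 2 h (0.79 ± 0.18, adjusted p = 0.00401, 1.73-fold). It rose from 2 to 12 h in cko (0.51 ± 0.18), a call lost without either replicate of cko at 2 h (0.46 and 0.56) or cko replicate 2 at 12 h (0.28), and under quantile normalization, median scaling and no intensity trend (0.27 to 0.51).

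Cdt1, which brings the helicase to origins and is degraded once S phase starts, fell from 0 to 12 h in wild type (-0.55 ± 0.05, adjusted p = 2.36e-07) and from 2 to 12 h in cko (-0.92 ± 0.05, adjusted p = 1.83e-09). At 0 h it was called higher in cko by 0.20 ± 0.05, a call lost under quantile normalization (0.01) and turned to -0.13 when a gene's probe sets were averaged. Orc2 was lower in cko at 0 h (-0.32 ± 0.11, adjusted p = 0.0417), but averaging its probe sets gave 0.0046, and the call was lost without wild-type replicate 2 at 0 h (-0.23), either replicate of cko at 0 h (-0.35 and -0.28) or either of cko at 2 h (-0.32). Orc6 fell from 2 to 12 h in cko (-0.45 ± 0.15, adjusted p = 0.0239), which was lost without either replicate of cko at 2 h (-0.48 and -0.43) or cko replicate 1 at 12 h (-0.30). Cdc6, the loading ATPase, had signals of 20.5 to 64.4. Its lower value in cko at 2 h (-0.94 ± 0.32, adjusted p = 0.0419) lost the call without any 1 of the 4 arrays at 2 h or the 2 of cko at 12 h (-0.96 to -0.93). Orc3 was not called in these 4 comparisons (0.06 ± 0.16 at 0 h, 0.38 ± 0.16 at 2 h).

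The 6 MCM2-7 genes encode the ring-shaped helicase that unwinds DNA, and none differed between the genotypes at 0 h. Mcm5 (1436808_x_at) read 5039 and 5007 at 0 h, 3438 and 3329 at 2 h and 7201 and 7187 at 12 h in wild type. Mcm5 in cko read 5293 and 5359, 2457 and 2230.4 and 4173 and 3786 at these times. Wild type at 12 h was the highest group and cko at 2 h the lowest, and the genotypes did not overlap at any time. Mcm5 was lower in cko at 2 h (-0.53 ± 0.06, adjusted p = 3.28e-05), though averaging its 3 probe sets gave -0.10. It rose to 12 h in wild type from 0 h (0.52 ± 0.06, adjusted p = 7.93e-06), which averaging reduced to 0.02, and in cko from 2 h (0.76 ± 0.06, adjusted p = 1.8e-07). Mcm4 (1436708_x_at) read 1028 and 1047 at 0 h, 624 and 784 at 2 h and 873 and 791 at 12 h in wild type. Mcm4 in cko read 997 and 1086, 702 and 595 and 562 and 528 at these times. Both cko arrays at 12 h were the lowest, and the 4 arrays at 0 h were the highest and overlapped between genotypes. Mcm4 fell from 0 to 12 h in wild type (-0.31 ± 0.11, adjusted p = 0.0352), a call lost under median scaling (-0.21), without an intensity trend, and without either replicate at 0 h (-0.33 and -0.30) or replicate 2 at 12 h (-0.24).

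Mcm2 (1434079_s_at) read 425 and 532 at 0 h, 302 and 769.7 at 2 h and 785 and 962 at 12 h in wild type. Mcm2 in cko read 337 and 379, 1006 and 282 and 296 and 749.7 at these times. Duplicates lay far apart at 2 h in both genotypes and at 12 h in cko. On this probe set Mcm2 was called in none of the 10 comparisons (0 to 12 h in wild type 0.85 ± 0.51). The dimmer second probe set of Mcm2 was called only across the control-probe sets. It was higher in cko than in wild type at 12 h (0.64 ± 0.22) and in the interaction at 12 h (1.13 ± 0.31). In cko it rose from 0 to 2 h (0.66 ± 0.22) and from 0 to 12 h (0.81 ± 0.22). Mcm6 rose from 0 to 12 h in wild type (0.33 ± 0.11, adjusted p = 0.0188), a call lost without replicate 1 at 0 h (0.27) or replicate 1 at 12 h (0.26). Mcm3 fell from 2 to 12 h in cko (-0.40 ± 0.09, adjusted p = 0.00231). Mcm7 differed by at most 0.09 in these 4 comparisons and was called in none (0.09 ± 0.05 from 2 to 12 h in cko).

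Helicase activation involves the kinase Cdc7, the scaffold protein Mcm10 and the 4 subunits of GINS, which join the MCM ring. Cdc7 (1426002_a_at) read 663 and 705 at 0 h, 569.8 and 509 at 2 h and 829 and 802 at 12 h in wild type. Cdc7 in cko read 430.1 and 423, 338 and 339 and 476 and 473 at these times. In cko Cdc7 lay below wild type at each time with no overlap. It was lower at 0 h (-0.66 ± 0.09, adjusted p = 0.000129, 1.58-fold) and at 2 h (-0.65 ± 0.09, adjusted p = 0.000186), where averaging with its dim second probe set gave -0.09. Cdc7 rose from 2 to 12 h in cko (0.47 ± 0.09, adjusted p = 0.000764), a call lost under median scaling (0.24) and turned to -0.09 by averaging. In wild type its rise of 0.25 ± 0.09 from 0 to 12 h was lost without any of the 4 arrays compared (0.21 to 0.29) or either of cko at 12 h, and averaging gave -0.38.

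Gins1 (1452598_at) read 125 and 84.7 at 0 h, 154 and 144 at 2 h and 128 and 124 at 12 h in wild type. Gins1 in cko read 82.6 and 39.8, 152 and 159 and 287 and 528 at these times. Both cko arrays at 12 h were above the other 10, and they lay far apart. Gins1 rose from 2 to 12 h in cko (1.24 ± 0.29, adjusted p = 0.00252), a call lost without cko replicate 2 at 12 h (0.82). Gins2 (1428713_s_at) read 144 and 157 at 0 h, 116 and 106 at 2 h and 217 and 259.7 at 12 h in wild type. Gins2 in cko read 109 and 132, 39.9 and 54.8 and 254 and 314 at these times. The lowest arrays were those of cko at 2 h and the highest those at 12 h, where the genotypes overlapped. Gins2 was lower in cko at 2 h (-1.01 ± 0.19, adjusted p = 0.00125, 2.01-fold) and rose 4.75-fold from 2 to 12 h in cko (2.25 ± 0.19, adjusted p = 2.48e-07). Its smaller rise from 0 to 12 h in wild type (0.61 ± 0.19, adjusted p = 0.0159) was lost without replicate 1 at 0 h (0.55) or replicate 2 at 12 h (0.48).

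Gins4 rose from 2 to 12 h in cko (0.87 ± 0.14, adjusted p = 0.00015), from 750 and 807 to 1431 and 1432. Gins3 was higher in cko at 0 h (0.60 ± 0.19, adjusted p = 0.0263), a call lost without any of the 4 arrays compared (0.51 to 0.70) and on averaging probe sets (0.48). Mcm10 was lower in cko at 0 h (-0.78 ± 0.24, adjusted p = 0.0239), lost likewise without any of the 4 arrays (-0.87 to -0.69), and fell from 0 to 12 h in wild type (-0.90 ± 0.24, adjusted p = 0.00625), which averaging ended (-0.47).

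Among the 8 polymerase and primase genes, Pole2, the second subunit of the leading-strand polymerase epsilon, was higher in cko at each time. At 12 h that comparison sets 1 control-probe set against the other. Pole2 (1427094_at) read 215 and 236 at 0 h, 158 and 184 at 2 h and 664 and 522 at 12 h in wild type. Pole2 in cko read 321 and 447, 295 and 343 and 910.0 and 1116 at these times. The genotypes did not overlap at any time, and both groups at 12 h lay above all others. Pole2 was higher in cko at 0 h (0.71 ± 0.17, adjusted p = 0.00555, 1.64-fold), a call lost without cko replicate 2 at 0 h (0.49), and at 2 h (0.84 ± 0.17, adjusted p = 0.00212). It rose 2.51-fold from 0 to 12 h in wild type (1.33 ± 0.17, adjusted p = 1.54e-05) and 3.07-fold from 2 to 12 h in cko (1.62 ± 0.17, adjusted p = 2.23e-06). Pole, the catalytic subunit of the same enzyme, went the other way in wild type (-0.65 ± 0.24, adjusted p = 0.0398), a call lost without replicate 2 at 0 h (-0.44), either replicate at 12 h (-0.52 and -0.79) or either of cko at 12 h, and under 5 other settings. In cko Pole rose from 2 to 12 h (0.72 ± 0.24, adjusted p = 0.0252), which was lost without cko replicate 2 at 2 h (0.61) or either of cko at 12 h (0.70 and 0.73) and under both scalings (0.44 and 0.49).

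Pold1 (1456055_x_at) read 3552 and 3251 at 0 h, 701 and 544 at 2 h and 2330.0 and 2297 at 12 h in wild type. Pold1 in cko read 4697 and 4280.2, 596 and 759 and 1256 and 1438 at these times. The 4 arrays at 2 h were the lowest and the 2 of cko at 0 h the highest. Pold1, the catalytic subunit of polymerase delta, fell from 0 to 12 h in wild type (-0.55 ± 0.12, adjusted p = 0.00199) and rose from 2 to 12 h in cko (0.98 ± 0.12, adjusted p = 1.38e-05). Its higher value in cko at 0 h (0.40 ± 0.12, adjusted p = 0.0249) was lost without wild-type replicate 2 (0.33) or cko replicate 1 at 0 h (0.33), and under quantile normalization (0.29). Pold2, the next subunit, rose from 294 and 256 to 737 and 646 from 0 to 12 h in wild type (1.28 ± 0.12, adjusted p = 5.36e-07, 2.43-fold), and from 508 and 612 to 913 and 930 from 2 to 12 h in cko (0.71 ± 0.12, adjusted p = 0.000168). At 0 h Pold2 was called lower in cko (-0.33 ± 0.12, adjusted p = 0.0444), which was lost without 7 of the 12 arrays in turn (-0.39 to -0.24).

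Pola1, the catalytic subunit of polymerase alpha, was higher in cko at 2 h (0.75 ± 0.18, adjusted p = 0.0074), lost without wild-type replicate 2 (0.66) or cko replicate 1 at 2 h (0.64), and rose from 2 to 12 h in cko (0.92 ± 0.18, adjusted p = 0.000768). Prim2, the large primase subunit, was called higher at 12 h than at 2 h in cko (0.45 ± 0.15, adjusted p = 0.0255), but averaging its 3 probe sets gave -0.0064, and the call was lost under both scalings (0.21) and without 3 arrays (cko replicate 2 at 2 h 0.29, replicates of cko at 12 h 0.38 and 0.51). Pola2 was not called in these 4 comparisons (0.26 ± 0.15 at 0 h). Prim1, the catalytic primase subunit, was not called on its brightest probe set (0.36 ± 0.21 from 2 to 12 h in cko), whereas its second probe set gave 0.89 ± 0.10 there (adjusted p = 6.6e-06 over probe sets) and -0.59 and -0.46 for cko against wild type at 0 and 2 h, both called.

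Pcna is the ring that holds the polymerases on DNA, and the 5 Rfc proteins open it and place it on the primer. Pcna (1417947_at) read 1869.7 and 2005 at 0 h, 12557 and 11989.8 at 2 h and 4265 and 4338 at 12 h in wild type. Pcna in cko read 1713 and 1874, 13054 and 13844 and 9452 and 9786 at these times. The 4 arrays at 2 h were the highest, then cko at 12 h, wild type at 12 h and the 4 at 0 h, with no overlap between these steps. Pcna rose 2.21-fold from 0 to 12 h in wild type (1.15 ± 0.06, adjusted p = 2e-09) and fell from 2 to 12 h in cko (-0.48 ± 0.06, adjusted p = 1.21e-05). The genotype differences of Pcna at 0 h (-0.11 ± 0.06) and 2 h (0.13 ± 0.06) were not called.

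Rfc3 (1432538_a_at) read 109.8 and 91.2 at 0 h, 136 and 151 at 2 h and 92.7 and 111 at 12 h in wild type. Rfc3 in cko read 253 and 243, 213 and 269.8 and 175 and 188 at these times. At each time both cko arrays lay above both wild-type arrays. Rfc3 was higher in cko at 0 h (1.19 ± 0.17, adjusted p = 0.000148, 2.27-fold) and at 2 h (0.69 ± 0.17, adjusted p = 0.00808), the latter lost without wild-type replicate 1 (0.62) or cko replicate 2 at 2 h (0.53). Rfc4 (1438161_s_at) read 486 and 478 at 0 h, 246 and 211 at 2 h and 767 and 752 at 12 h in wild type. Rfc4 in cko read 673 and 664, 356 and 313 and 503 and 492 at these times. On this probe set Rfc4 in cko lay above wild type at 0 and 2 h and below it at 12 h, each time without overlap. At 12 h the genotypes lie in different control-probe sets. There the second probe set of Rfc4 was called higher in cko (1.56 ± 0.19), opposite to the brightest (-0.59 ± 0.11). Rfc4 was higher in cko at 0 h (0.46 ± 0.11, adjusted p = 0.00453), where averaging its probe sets gave 0.02, and at 2 h (0.52 ± 0.11, adjusted p = 0.00222). It rose to 12 h in wild type (0.64 ± 0.11, adjusted p = 0.000167) and in cko from 2 h (0.55 ± 0.11, adjusted p = 0.00055).

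Rfc2 (1457669_x_at) read 1804 and 1764 at 0 h, 305 and 277 at 2 h and 1488 and 1414 at 12 h in wild type. Rfc2 in cko read 2032 and 2013, 367 and 348 and 677 and 702 at these times. All 4 arrays at 2 h were far below the 4 at 0 h. Rfc2 was higher in cko at 2 h (0.29 ± 0.08, adjusted p = 0.0159), a call lost without wild-type replicate 2 (0.22) or cko replicate 1 at 2 h (0.25) and with only the 2 groups fitted. It rose from 2 to 12 h in cko (0.92 ± 0.08, adjusted p = 3.73e-07) and was called lower at 12 h in wild type (-0.30 ± 0.08, adjusted p = 0.00703), which was lost under median scaling (-0.20) and without replicate 2 at 12 h (-0.26). Rfc1, the large subunit, fell to 12 h in wild type (-0.42 ± 0.11, adjusted p = 0.00653), lost without replicate 2 at 0 h (-0.37) and on averaging (-0.22), and rose from 2 to 12 h in cko (0.65 ± 0.11, adjusted p = 0.000253). Rfc5 rose from 2 to 12 h in cko (0.96 ± 0.11, adjusted p = 3.66e-06). Its call at 0 h (-0.29 ± 0.11, adjusted p = 0.0499) was lost without any 1 of the 12 arrays (-0.36 to -0.22).

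Rpa1, Rpa2 and Rpa3 form the complex that coats single-stranded DNA. Rpa1 (1437309_a_at) read 13583 and 14233 at 0 h, 5228 and 4979 at 2 h and 11932 and 12662 at 12 h in wild type. Rpa1 in cko read 15373 and 15443, 3727 and 3808 and 7975 and 7701 at these times. The 4 arrays at 0 h were the highest and cko at 2 h the lowest, and the genotypes did not overlap at any time. Rpa1 was lower in cko at 2 h (-0.44 ± 0.05, adjusted p = 2.91e-05) and rose 2.08-fold from 2 to 12 h in cko (1.05 ± 0.05, adjusted p = 1.15e-09). Its call at 0 h, higher in cko by 0.15 ± 0.05, turned to -0.10 under quantile normalization and -0.25 on averaging, and was lost without any of the 4 arrays compared (0.11 to 0.18). In wild type Rpa1 fell by 0.18 ± 0.05 to 12 h (adjusted p = 0.00903), lost under median scaling (-0.08) and without replicate 2 at 0 h (-0.14) or replicate 1 at 12 h (-0.13). Rpa3 (1448938_at) read 194 and 236 at 0 h, 243 and 337 at 2 h and 271 and 259 at 12 h in wild type. Rpa3 in cko read 256 and 305, 371 and 379 and 748 and 845 at these times. Both cko arrays at 12 h lay above the other 10, which overlapped between several groups. Rpa3 rose from 2 to 12 h in cko (1.05 ± 0.15, adjusted p = 5.72e-05, 2.07-fold) and was not called in the other 3 comparisons. Rpa2 fell to 12 h in wild type (-0.50 ± 0.16, adjusted p = 0.0153), lost without replicate 2 at 0 h (-0.33) or replicate 2 at 12 h (-0.47) and on averaging (-0.23).

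Fen1, the nuclease that trims flaps between fragments, read 1588 and 1730 in wild type at 0 h and 2655 and 2590 in cko. It was higher in cko at 0 h (0.66 ± 0.10, adjusted p = 0.000325, 1.58-fold), not at 2 h (-0.09 ± 0.10), and rose 2.12-fold to 12 h in wild type (1.08 ± 0.10, adjusted p = 9.36e-07). The dimmer second probe set of Fen1 was not called to 12 h in wild type (-0.42 ± 0.24). Lig1, the ligase that seals the fragments, rose from 2 to 12 h in cko (0.51 ± 0.12, adjusted p = 0.00322), a call lost under quantile normalization (0.31) and median scaling (0.28).

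Of the 5 nucleotide enzymes 3 were lower in cko at 0 h and 2 at 2 h, where 16 and 15.7% of all genes were lower, and 0 were higher at either time. Rrm2 (1434437_x_at) read 837 and 874 at 0 h, 307 and 312 at 2 h and 175 and 168 at 12 h in wild type. Rrm2 in cko read 289 and 261, 114 and 128 and 119 and 125 at these times. On this probe set Rrm2, the subunit of ribonucleotide reductase whose level follows the cell cycle, was highest in wild type at 0 h. On the same probe set cko lay below wild type at each time without overlap. Rrm2 was lower in cko at 0 h (-1.58 ± 0.13, adjusted p = 1.32e-06, 3-fold) and at 2 h (-1.25 ± 0.13, adjusted p = 9.18e-06), and fell 4.66-fold from 0 to 12 h in wild type (-2.22 ± 0.13, adjusted p = 4.25e-09). Its 3 probe sets were all called lower in cko at 0 h and all called lower at 12 h in wild type. Summed erythroid, myeloid and mitotic markers also read less in cko at 0 and 2 h and in wild type at 12 h than at 0 h. The sum of the erythroid markers (3 of 5 on the array passed the filter) was 1277 to 1409 in wild type and 241 to 262 in cko at 0 h, 387 to 410 and 95.7 to 97.9 at 2 h, and 371 to 387 in wild type at 12 h. Myeloid markers (11 of 12 passed) summed to 21371 to 22189 and 9926 to 9937 at 0 h, 16564 to 16610 and 2956 to 3228 at 2 h, and 7901 to 8769 in wild type at 12 h. Mitotic markers (15 of 17 passed) summed to 3492 to 3790 and 2808 to 2920 at 0 h, 2348 to 2561 and 2002 to 2006 at 2 h, and 2184 to 2470 in wild type at 12 h. Of the 11 myeloid markers tested, 1 was called higher and 5 lower in cko at 0 h, and 1 and 7 at 2 h. For cko at 12 h, where the brightest Rrm2 probe set also lay below wild type, the mitotic sums of 2247 to 2309 overlapped those of wild type. The erythroid sums of 79.6 to 93.7 and the myeloid sums of 3905 to 4060 in cko at 12 h lay below those of wild type. The part of these markers in the Rrm2 values was not tested.

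Dut (1419270_a_at) read 597 and 740.5 at 0 h, 827 and 770.1 at 2 h and 1219 and 1157 at 12 h in wild type. Dut in cko read 308 and 394, 551 and 587 and 1665 and 1740.4 at these times. Dut, which breaks down dUTP so that uracil stays out of DNA, was lower in cko at 0 and 2 h and above wild type at 12 h, with no overlap at any time. The difference was -0.90 ± 0.12 at 0 h (adjusted p = 7.97e-05) and -0.48 ± 0.12 at 2 h (adjusted p = 0.00869), the latter lost without replicate 1 of either group (-0.43 in each case) and on averaging probe sets (-0.19). Dut rose to 12 h in wild type (0.82 ± 0.12, adjusted p = 5.4e-05), where averaging gave 0.26, and 2.94-fold from 2 to 12 h in cko (1.55 ± 0.12, adjusted p = 1.09e-07). Tk1 (1416258_at) read 102 and 116 at 0 h, 51.8 and 71.3 at 2 h and 98.6 and 87.9 at 12 h in wild type. Tk1 in cko read 78.2 and 133, 12.5 and 54.1 and 216 and 245 at these times. The 2 cko arrays at 12 h were above the other 10, and the 2 of cko at 2 h were far apart. Tk1, the thymidine salvage kinase, rose 5.5-fold from 2 to 12 h in cko (2.46 ± 0.35, adjusted p = 4.03e-05) and was not called to 12 h in wild type (-0.20 ± 0.35). Rrm1, the large reductase subunit, rose in cko from 2 to 12 h (0.63 ± 0.18, adjusted p = 0.0105), lost under both scalings (0.44 and 0.39) and without cko replicate 2 at 2 h (0.58). Its lower value in cko at 0 h (-0.50 ± 0.18, adjusted p = 0.0486) was lost without 10 of the 12 arrays in turn (-0.61 to -0.40). Tyms, thymidylate synthase, had signals of 3.6 to 52.5 and was called in none of the 10 comparisons (1.14 ± 0.48 from 2 to 12 h in cko).

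**Figure D2:**
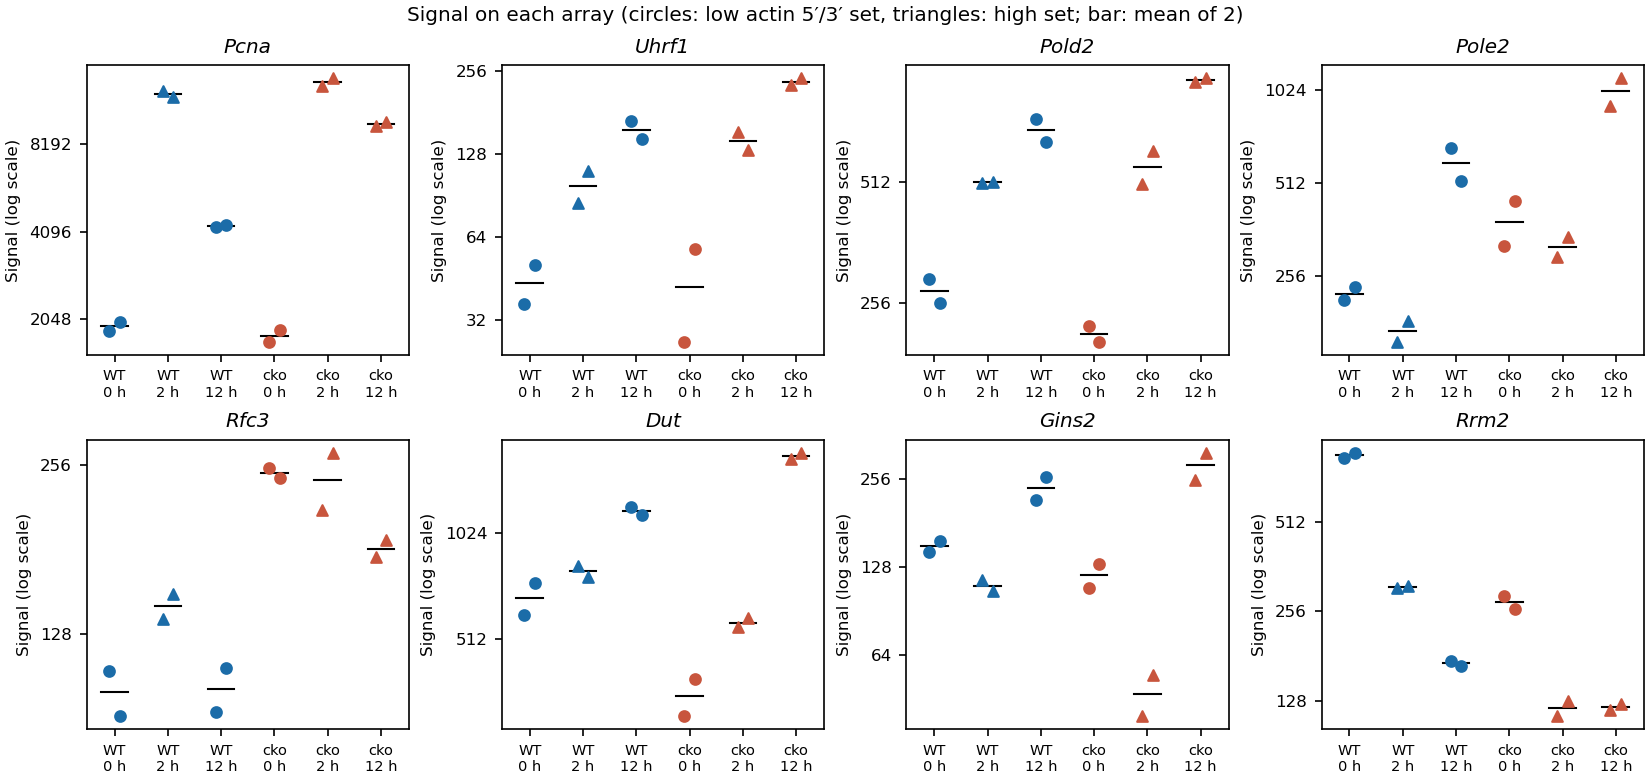
Signal on each of the 12 arrays (log axis) for selected genes, by genotype and time; circles are arrays of the low actin ratio set, triangles those of the high set, and bars are means of 2. Pole2 and Rfc3 in cko lie above wild type at each time and Rrm2 below, and the 4 arrays at 2 h are the highest for Pcna. At 12 h wild type and cko lie in different sets, and another Rrm2 probe set was called higher in cko.

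The E2F activators switch on many replication genes, and Uhrf1 carries DNA methylation through replication. Uhrf1 (1415810_at) read 36.7 and 50.7 at 0 h, 85 and 112 at 2 h and 169 and 145 at 12 h in wild type. Uhrf1 in cko read 26.8 and 58, 154 and 133 and 229 and 241 at these times. Every array at 2 and 12 h lay above the 4 at 0 h. Uhrf1 rose 2.91-fold to 12 h in wild type (1.54 ± 0.25, adjusted p = 0.000165), and its rise from 2 to 12 h in cko (0.66 ± 0.25, adjusted p = 0.0465) was lost without 8 of the 12 arrays in turn (0.56 to 0.75) and under both scalings (0.39 and 0.42). E2f2 (1436434_at) read 253 and 251 at 0 h, 149 and 154 at 2 h and 143 and 74.3 at 12 h in wild type. E2f2 in cko read 216 and 197, 168 and 173 and 156 and 148 at these times. The 2 wild-type arrays at 0 h were the highest and the 2 at 12 h the lowest. E2f2 fell to 12 h in wild type (-1.16 ± 0.21, adjusted p = 0.000393) while E2f1 rose (0.83 ± 0.19, adjusted p = 0.00219), from 160 and 130.2 to 244 and 299. E2f3 was called lower in cko at 0 h (-0.45 ± 0.16, adjusted p = 0.0462), but averaging its probe sets gave 0.14 and the call was lost without 9 of the 12 arrays in turn (-0.56 to -0.34).

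The interaction at 2 h asks whether the step from 0 to 2 h differed between the genotypes, and in both genotypes that step goes from the low to the high actin ratio set. The step in the ratio was larger in cko (from 1.796 to 1.988% to 10.56 to 10.78%) than in wild type (from 3.267 to 3.329% to 8.413 to 8.511%), and its part in the interaction was not tested. Only 2 of the 47 genes had a higher step in cko (4.26%, against 8.59% of all genes) and 3 a lower one (6.38%, against 11.8%). Orc1 (1.97 ± 0.52, adjusted p = 0.0162) and Orc5 (0.77 ± 0.25, adjusted p = 0.044) were higher, and Mcm5 (-0.61 ± 0.09, adjusted p = 0.000273), Rpa1 (-0.58 ± 0.07, adjusted p = 7.79e-05) and Fen1 (-0.75 ± 0.15, adjusted p = 0.00281) lower. The call of Fen1 held under every alternative apart from the 2-fold size, and averaging probe sets reduced Mcm5 to -0.01 and Rpa1 to -0.11. Orc1 lost its call without wild-type replicate 1 at 0 h (1.88) or at 2 h (1.83), cko replicate 1 at 0 h (1.34) or cko replicate 2 at 2 h (1.55), and Orc5 without 8 of the 12 arrays in turn (0.61 to 0.86). The higher count ranged from 0 without cko replicate 2 at 2 h to 4 without wild-type replicate 1 at 0 h.

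The remaining comparisons set arrays of 1 control-probe set against the other, so that the treatment or genotype and the set cannot be told apart. From 0 to 2 h, 11 of the 47 rose (23.4%, against 23.5% of all genes) and 17 fell (36.2%, against 36.2%) in wild type, with 14 and 15 under quantile normalization and 15 and 10 under median scaling. Without wild-type replicate 2 at 2 h the higher count was 7. In cko 14 rose (29.8%, against 23.8%) and 19 fell (40.4%, against 39.2%), with 16 and 13 under median scaling. Pcna rose 6.29-fold in wild type (2.65 ± 0.06, adjusted p = 3.74e-13) and 7.45-fold in cko (2.90 ± 0.06, adjusted p = 1.28e-13). Orc6 rose in both (0.66 ± 0.15 and 0.88 ± 0.15), while Pold1 (-2.43 ± 0.12 and -2.71 ± 0.12), Rfc2 (-2.55 ± 0.08 and -2.45 ± 0.08), Rpa1 (-1.44 ± 0.05 and -2.03 ± 0.05) and Rfc1 (-1.08 ± 0.11 and -1.11 ± 0.11) fell in both.

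At 12 h, 14 of the 47 were higher in cko than in wild type (29.8%, against 21.4% of all genes) and 14 lower (29.8%, against 29.9%). Gins4 (1.82 ± 0.14, adjusted p = 1.1e-07), Rpa3 (1.53 ± 0.15, adjusted p = 1.51e-06), Gins1 (1.51 ± 0.29, adjusted p = 0.000532) and Pcna (1.16 ± 0.06, adjusted p = 2.54e-09) were higher, and Rfc2 (-1.06 ± 0.08, adjusted p = 8.75e-08), Mcm5 (-0.85 ± 0.06, adjusted p = 5.52e-08) and Cdt1 (-0.73 ± 0.05, adjusted p = 1.69e-08) lower, where averaging its probe sets reduced Mcm5 to -0.01. From 0 to 12 h in cko 19 rose (40.4%, against 25.9%) and 14 fell (29.8%, against 33.1%), led by Gins1 (2.45 ± 0.29), Pcna (2.41 ± 0.06) and Dut (2.24 ± 0.12) up and Pold1 (-1.73 ± 0.12), Rfc2 (-1.53 ± 0.08) and Cdt1 (-1.48 ± 0.05) down. The interaction at 12 h called 12 higher (25.5%, against 18.8%) and 12 lower (25.5%, against 24.4%). Over the 6 groups, 15 of the 47 genes had their highest mean in cko at 12 h (31.9%, against 14.8% of all genes).

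**Figure D3:**
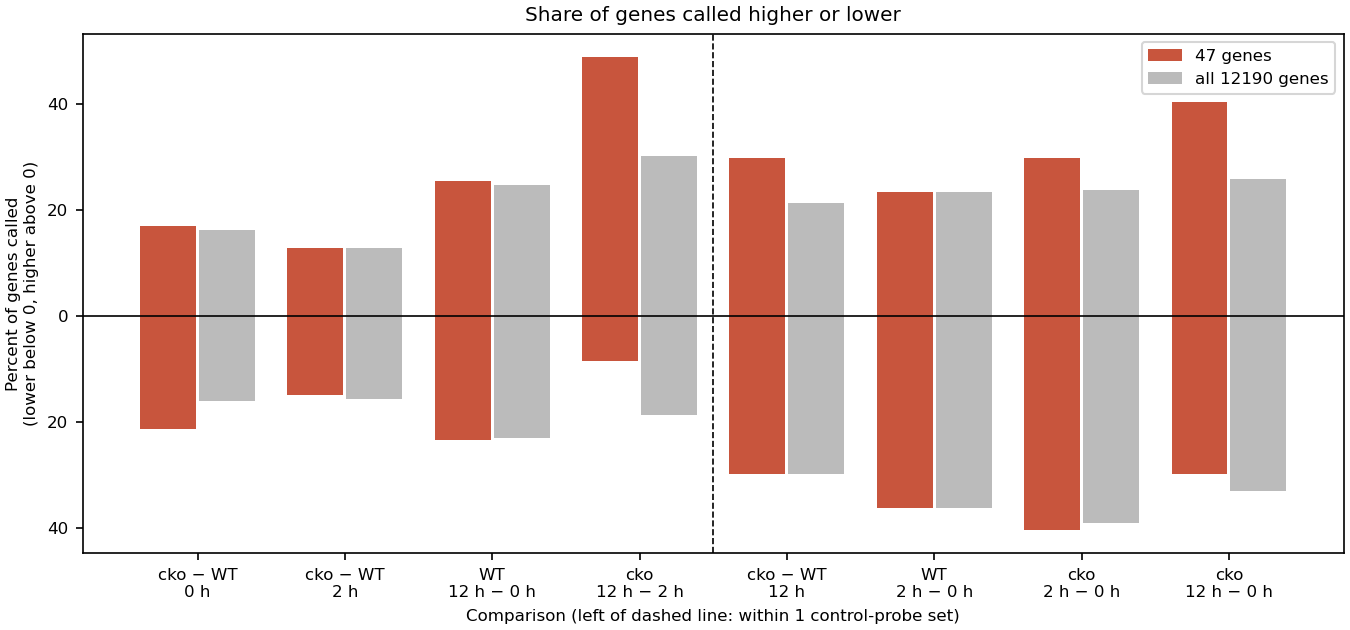
Percent of the 47 genes and of all 12190 genes called higher (above 0) and lower (below 0) in each comparison, with those inside 1 control-probe set left of the dashed line. In cko at 12 h against 2 h, 48.9% of the members and 30.2% of all genes were higher, and in wild type at 12 h 25.5 and 24.8%.

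Genes with several probe sets show how far 1 probe set stands for its gene. Of the 103 probe sets of the 47 genes, 91 passed the filter, and 30 genes had several. Inside 1 control-probe set, probe sets of the same gene called in opposite directions were seen for 3 of the 30 genes at 0 h (Cdt1, Orc2 and Rpa1; 10%, against 5.6% of 5567 genes), 0 of 30 at 2 h (against 1.1%), 1 from 0 to 12 h in wild type (Cdc7; 3.33%, against 7.11%) and 0 from 2 to 12 h in cko (against 4.53%). Across the sets the counts were 5 from 0 to 2 h in wild type (16.7%, against 15.6%), 9 in cko (30%, against 18.6%), 8 from 0 to 12 h in cko (26.7%, against 21%) and 8 for cko against wild type at 12 h (26.7%, against 20.2%). For the interactions they were 0 at 2 h (against 3.31%) and 8 at 12 h (26.7%, against 17.3%). Mcm7 is an example. From 0 to 12 h in cko its brightest probe set was lower (-0.20 ± 0.05, adjusted p = 0.00546) and 2 others higher, by 2.13 and 0.58, and the average of all 4 gave 0.53. Its brightest probe set was also lower from 0 to 2 h in both genotypes (-0.30 ± 0.05 and -0.29 ± 0.05), at 0.0044 and 0.0062 under median scaling and 0.49 and 0.55 on averaging. All probe sets past the filter moved the same way for Rfc3 and Rfc4 (higher in cko at 2 h), Mcm6 (higher at 12 h in wild type), Cdt1, Mcm4, Pold1, Rpa1 and Rrm2 (lower at 12 h in wild type), and Rfc2, Rfc4 and Rpa1 (higher from 2 to 12 h in cko).

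**Figure D4:**
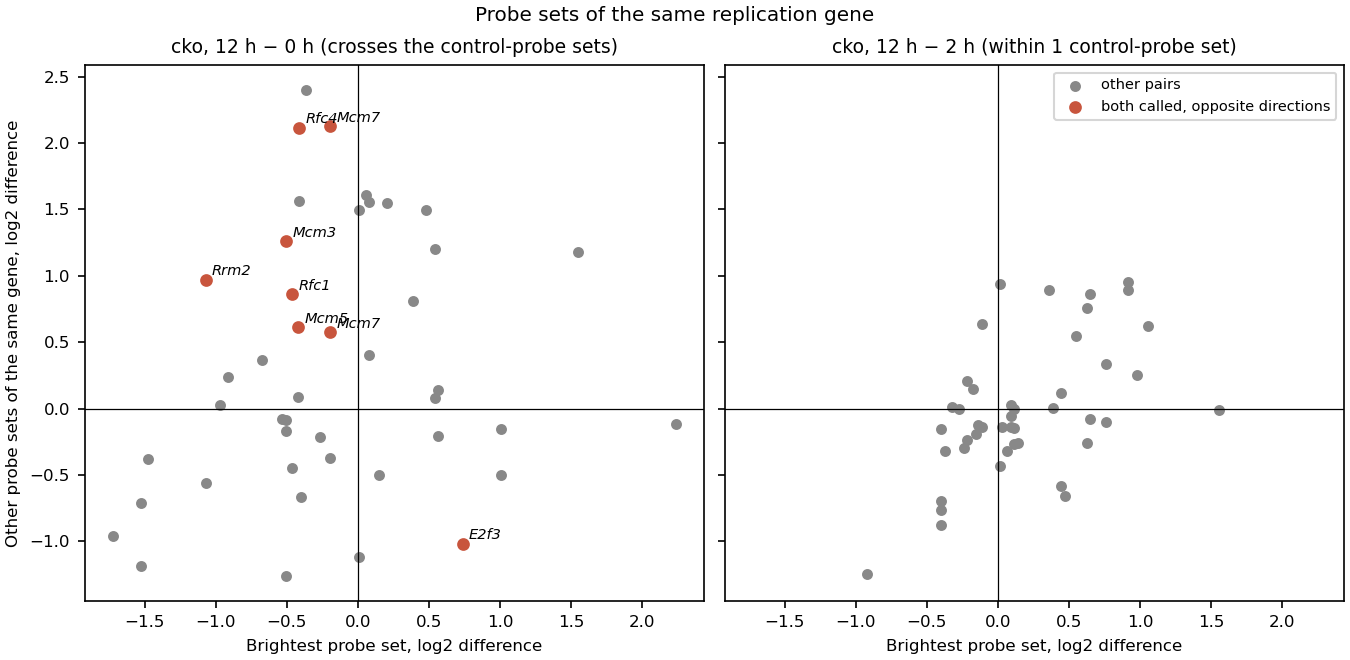
Each point is a further probe set of a replication gene, with its log2 difference (vertical) against that of the brightest probe set of the same gene (horizontal). Red points, called the opposite way to the brightest probe set, belong to E2f3, Mcm3, Mcm5, Mcm7, Rfc1, Rfc4 and Rrm2 in cko at 12 h against 0 h (left, across the control-probe sets), and 0 genes have one at 12 h against 2 h (right, inside 1 set).

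Other genes of the pathway were read from 4 further lists. For comparison, the shares of all genes called higher and lower were 24.8 and 23.1% to 12 h in wild type, 16.3 and 16% in cko at 0 h, 12.8 and 15.7% in cko at 2 h, and 30.2 and 18.7% from 2 to 12 h in cko. Of 35 tested replication genes outside the 47, 14 rose and 3 fell from 0 to 12 h in wild type, with Rnaseh2b (1.57 ± 0.12, adjusted p = 5.68e-08) and Rnaseh2c (0.73 ± 0.06, adjusted p = 1.12e-07), subunits of the RNase that removes ribonucleotides from DNA, higher and Pold4 (-1.01 ± 0.09, adjusted p = 4e-07), the small subunit of polymerase delta, lower. In cko at 2 h 5 were higher and 5 lower, among them Rnaseh1 (0.69 ± 0.10), Rnaseh2c (-0.59 ± 0.06) and Mcmbp, an MCM-binding protein (-0.45 ± 0.09). In cko from 2 to 12 h 14 rose and 5 fell, and at 0 h 8 were higher and 5 lower. Of 12 further genes of nucleotide supply, 8 rose and 4 fell to 12 h in wild type, with the CTP synthase gene Ctps (2.18 ± 0.06, adjusted p = 7.93e-12) and the nucleoside diphosphate kinase gene Nme1 (1.71 ± 0.07, adjusted p = 1.75e-10) up and the mitochondrial thymidine kinase gene Tk2 (-2.82 ± 0.14, adjusted p = 1.24e-09) down. At 2 h 4 of the 12 were higher in cko, including Dctd (1.46 ± 0.24), Nme1 (0.39 ± 0.07) and Dtymk (0.38 ± 0.07), and 1 was lower. The 12 had 5 higher and 2 lower at 0 h, and 5 higher and 4 lower from 2 to 12 h in cko.

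Of 19 genes of E2F control and S-phase entry, 0 were higher and 8 lower in cko at 0 h, 3 higher and 5 lower at 2 h, 4 higher and 8 lower at 12 h in wild type, and 8 higher and 4 lower from 2 to 12 h in cko. All genes had 16.3% higher and 16% lower at 0 h, 12.8 and 15.7% at 2 h, 24.8 and 23.1% at 12 h in wild type, and 30.2 and 18.7% from 2 to 12 h in cko. Ccne1, the cyclin that drives S-phase entry, was lower in cko at 2 h (-1.65 ± 0.14, adjusted p = 2.5e-06), with 304 and 254 in wild type and 92.1 and 64.6 in cko, while Cdk6 (0.74 ± 0.06) and E2f5 (0.77 ± 0.11) were higher. At 12 h in wild type the G1 kinases Cdk4 (1.39 ± 0.07, adjusted p = 1.5e-09) and Cdk6 (1.22 ± 0.06, adjusted p = 1.86e-09) were higher and the inhibitor Cdkn1b (-1.55 ± 0.16, adjusted p = 1.6e-06) lower. Of 15 mitotic genes, 1 rose and 7 fell to 12 h in wild type, with the proliferation marker Mki67 (-3.98 ± 0.39, adjusted p = 1.03e-06), Ube2c (-2.11 ± 0.27, adjusted p = 1.59e-05) and Cenpa (-0.54 ± 0.09, adjusted p = 0.0003) down. In cko the mitotic genes were 2 higher and 5 lower at 0 h, 0 and 3 at 2 h (Mki67 -2.29 ± 0.39, Cdk1 -1.13 ± 0.29, Cenpa -0.33 ± 0.09) and 3 and 2 from 2 to 12 h. Their medians were -0.51 at 0 h, -0.23 at 2 h and -0.91 to 12 h in wild type, against 0.02, -0.02 and 0.03 over all genes. Summed erythroid and myeloid markers read less in cko at 0 and 2 h and in wild type at 12 h, as given with Rrm2, and their part was not tested.

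Set beside the promoter letters, the 17 genes with E2F letters had 5 higher and 2 lower in cko at 0 h and the 23 without had 3 and 8. At 2 h the counts were 3 and 2 against 2 and 4, to 12 h in wild type 4 and 3 against 7 and 5, and from 2 to 12 h in cko 6 and 2 against 11 and 2. The medians from 2 to 12 h in cko were 0.09 with the letters and 0.47 without. Over all genes the shares higher and lower were 16.3 and 16% at 0 h, 12.8 and 15.7% at 2 h, 24.8 and 23.1% to 12 h in wild type, and 30.2 and 18.7% from 2 to 12 h in cko. These are counts on 40 genes, with no test of the difference.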

How the data were processed

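Messenger RNA was measured in 12 samples on Affymetrix Mouse 430 2.0 arrays, 2 per combination of genotype and time. Per the labels' protocols, 100 ng of RNA went through 2 rounds of amplification and each array received 10 µg of the product. The authors deposited signal intensities on a linear scale for every probe set, made with GCOS 1.4 per the submitters' processing notes, and their 2% trimmed mean was 250 on every array. How probes were summarised was not stated in the labels.

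Signals were taken as log2(signal + 16) without further normalization. Of 45101 probe sets, 34945 with 1 gene symbol were kept, 99.4% of them matched to RefSeq by Entrez identifier. Those with a mean above the 40th percentile (signal 19.2) numbered 21906, and the brightest per gene gave 12190 genes. Groups were fitted with limma 3.58.1 in R 4.3.3 (1 mean per group, 6 residual and 7.29 prior degrees of freedom, intensity trend, two-sided). In each of 10 contrasts the Benjamini-Hochberg adjustment took in all 12190 genes. The number of arrays limits the precision. The procedure was tested on simulated data.

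The members, roles, lists and tests were chosen with earlier results of these data known. All 47 genes are named. Signals on all arrays are given for the 2 genes of each role (3 for MCM2-7) with the widest span of group means and for genes called at both 0 and 2 h between the genotypes, and of each further list the 3 with the smallest p in wild type at 12 h and in cko at 2 h are named. Other genes whose signals are printed, and the 4 promoters, were chosen after their values were seen. No shared deviation by replicate number was seen: deviations of arrays with the same number correlated at r = -0.0132 to 0.0246 over 15 pairs of groups. Whether samples with the same number were paired by design cannot be told from this, and the labels do not say. Alternatives changed the scaling (quantile or median), the pseudocount (1 or 64), the filter (none, or the 60th percentile), the intensity trend (none), the samples fitted (only the groups compared), the pairing (a replicate block), the probe sets (their mean per gene) and the size (2-fold). Each array was also left out in turn, and its lone partner was then taken to vary like the other groups. Control probe sets served only to divide the arrays. Of the 47 genes, 7 (Gins1, Gins2, Gins4, Mcm4, Pole, Prim2 and Rfc2) had no promoter window and were left out of the promoter counts only.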

Additional observations from a re-analysis of the deposited data

Results flagged for a closer look

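Differences between the genotypes in the step from 0 h were called, by the interaction term over all 12190 genes, for the following genes, given as the log2 step in cko minus that in wild type. At 2 h these were Orc1 (1.97), Orc5 (0.77), Fen1 (-0.75), Mcm5 (-0.61) and Rpa1 (-0.58). At 12 h the step was higher in cko for Gins1 (2.20), Gins4 (1.94), Orc1 (1.94), Dut (1.42), Pcna (1.27), Rpa3 (1.17), Rrm2 (1.15), Rrm1 (0.94), Orc3 (0.83), Pold2 (0.74), Pola1 (0.71) and Rfc5 (0.71). It was lower for Rfc2 (-1.24), Pold1 (-1.17), E2f1 (-1.10), Rfc4 (-1.05), Gins3 (-0.95), Mcm5 (-0.94), Cdt1 (-0.93), Rpa1 (-0.80), Lig1 (-0.79), Fen1 (-0.61), Mcm4 (-0.60) and Mcm3 (-0.57). At 12 h the cko step crosses the control-probe sets and the wild-type step does not, so set and genotype cannot be told apart there. Of the 24 calls at 12 h, 14 held under every alternative tried apart from the 2-fold size. Orc1 and Gins1 each have a duplicate pair that lies far apart in 1 cko group (7.27 and 39.6 at 0 h for Orc1, 287 and 528 at 12 h for Gins1).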

How the results depend on the processing

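Requiring 2-fold left these counts of higher and lower members: for cko against wild type 1 and 2 at 0 h, 0 and 2 at 2 h, 6 and 1 at 12 h; in wild type 2 and 7 at 2 h and 5 and 2 at 12 h; in cko 7 and 9 at 2 h, 12 and 4 at 12 h and 7 and 0 from 2 to 12 h; and for the interaction 1 and 0 at 2 h and 7 and 4 at 12 h. Over all genes, in either direction, this size was reached by 5.61% at 0 h, 4.17% at 2 h and 18% at 12 h for cko against wild type. In wild type it was 30.5% at 2 h and 17% at 12 h. In cko it was 35.1% at 2 h, 27.9% at 12 h and 16.8% from 2 to 12 h. For the interaction it was 4.91% at 2 h and 20.7% at 12 h. Other counts that moved by over 1.5 times were as follows. The higher members at 0 h were 5 with no intensity trend and 5 on averaging probe sets. The lower members at 0 h were 6 under quantile normalization, with no trend or with only the groups compared, 5 under median scaling and 4 with no filter. Averaging probe sets gave 5 lower in cko at 12 h, 8 and 6 lower in cko from 0 h to 2 and 12 h, and 1 and 5 lower for the interactions at 2 and 12 h. Median scaling gave 10 lower at 2 h and 7 lower at 12 h in wild type, 7 also with no trend. From 2 to 12 h in cko the lower members were 7 under quantile normalization and 10 under median scaling. The 2 higher members of the interaction at 2 h became 4 under quantile normalization and with a filter at the 60th percentile, 1 with a pseudocount of 64 or no filter and 0 with no trend. With a replicate block they were 4, and the block moved no other count by over 1.5 times. Smaller changes under the block gave 7 members lower at 0 h, 16 higher in cko at 12 h and 15 higher in the interaction.

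Leaving out 1 array at a time gave these ranges of higher and lower members: for cko against wild type 5 to 8 and 4 to 8 at 0 h, 4 to 6 and 5 to 7 at 2 h, 11 to 16 and 13 to 15 at 12 h; in wild type 7 to 12 and 16 to 19 at 2 h, 9 to 12 and 6 to 13 at 12 h; in cko 12 to 15 and 15 to 20 at 2 h, 15 to 19 and 13 to 15 at 12 h, 18 to 24 and 3 to 5 from 2 to 12 h; and for the interaction 0 to 4 and 3 to 4 at 2 h, 11 to 14 and 12 at 12 h.

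Averaging a gene's probe sets turned 23 gene values. At 0 h these were Orc2 (0.0046), Cdt1 (-0.13), Rfc1 (0.46), Rpa1 (-0.25) and E2f3 (0.14), and to 12 h Cdc7 in wild type (-0.38) and, from 2 h, in cko (-0.095), with Prim2 there (-0.0064). Across the control-probe sets they were Rrm2 (0.27), Mcm4 (0.12), Mcm3 (0.26) and Mcm7 (0.61) for cko against wild type at 12 h, Orc3 (-0.055) and Mcm7 (0.49) at 2 h in wild type, Mcm7 at 2 h (0.55) and 12 h (0.53) in cko, and in the interaction at 12 h Orc3 (-0.027), Mcm3 (0.29), Mcm4 (0.19), Mcm5 (0.076), Rfc4 (0.46), Rpa1 (0.20) and Fen1 (0.65). Quantile normalization turned Rpa1 at 0 h (-0.10) and median scaling Mcm7 at 2 h in wild type (0.0044) and cko (0.0062). The cause of these changes was not tested. Cdc6 and Tyms fall below the filter at the 60th percentile and have no value there. Signals of Orc1 in cko at 0 h, of Tyms and of Cdc6 lie close to the filter, where the noise of a dim probe set limits what can be shown.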
